A study of Ovis aries with 12 samples.

Results

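A set of 8 genes that receive or answer contraction signals in the wall of the gut were followed: 5 receptor genes (CHRM2, CHRM3, TACR2, EDNRA and EDNRB) and 3 genes of cyclic GMP (cGMP) signalling (GUCY1A1, PDE5A and PRKG1). They were taken from the table by symbol alone, whatever their values, and are 8 of its 21257 genes. All 8 reached 1 FPKM in 3 or more libraries, as did 12095 genes in all, which were the genes tested. FPKM is the number of fragments scaled to gene length and to the library total.

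The 12 libraries are mRNA of Tan sheep (Ovis aries) aged 5 months, with 3 libraries per diet. Sheep ate the basal diet alone, or the basal diet plus succinate at 0.5%, 1% or 2%. Succinate is an intermediate of the citric acid cycle. The trial held 36 sheep, 9 per diet and each penned singly; whether every library is a separate animal is not stated, and the p-values therefore speak only of the variation among these libraries, which may be technical.

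The series title speaks of rumen epithelial cells, and the labels name the animal but no tissue. Of 6 squamous epithelial markers, KRT5, KRT4, KRT15, TP63 and IVL had 0 reads in all 12 libraries and KRT14 averaged 0.0143 FPKM, while all 10 smooth muscle markers were among the genes tested. The levels below are therefore those of whole samples rich in smooth muscle RNA, and nothing here describes an epithelium. In such bulk samples, fewer cells of a type and less RNA per cell cannot be told apart. Each library held 15489883 to 18717309 reads in genes, so that the scarcest value among the 8 genes rested on 58 reads and the most abundant on 8291. Libraries differed in a way that follows gene length, on all diets. Spearman's rho across genes, between a gene's deviation in a library and its length, was -0.31 and -0.37 in replicates 1 and 2 of the basal diet, -0.63 in replicate 2 of the 0.5% diet, 0.58 and 0.43 in replicates 2 and 3 of the 1% diet and 0.28 in replicate 2 of the 2% diet. It lay between -0.16 and 0.06 in the other 6 libraries.

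Smooth muscle of the gut contracts when receptors on its surface release calcium inside the cell or slow the relaxation of myosin. Acetylcholine acts through muscarinic receptors, tachykinins released by enteric neurons through neurokinin receptors, and endothelin peptides through the endothelin receptors. Nitric oxide has the opposite effect: it activates soluble guanylate cyclase, the cGMP formed activates a protein kinase that relaxes the muscle, and phosphodiesterases end the signal by breaking cGMP down. These roles are known mostly from rodents and humans.

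None of the 8 genes differed between a succinate diet and the basal diet past the threshold. With limma on log2(FPKM + 1) and Benjamini-Hochberg adjustment at 0.05, 0 of the 8 genes passed at 0.5%, 1% or 2% succinate, in the slope on the dose or in the F test over the 4 diets. The background was the same: 0% of the 12095 genes tested passed in any of these tests. At an unadjusted p under 0.05, 0 of the 8 genes were below it at each dose and in the slope, against 4.65% of all genes at 0.5%, 19.4% at 1%, 3.17% at 2% and 3.21% in the slope. In the F test 1 of the 8, GUCY1A1, was below 0.05 before adjustment, against 12.6% of all genes. Under the other settings the count of the 8 genes below an unadjusted 0.05 ran from 0 to 3 at 0.5%, 0 to 2 at 1%, 0 to 1 at 2% and in the slope, and 0 to 2 in the F test. Over all genes such counts reached 1022 at 0.5%, 4461 at 1%, 952 at 2% and 3811 in the F test. A limma-voom fit on reads recovered from the FPKM also called 0 of the 12095 genes in each test, with 575, 2264 and 360 genes below an unadjusted 0.05 at the 3 doses, 397 in the slope and 1437 in the F test.

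The 8 genes spanned a wide range of levels. PDE5A was the most abundant at 48.3 ± 10.9 FPKM (SD, n = 12 libraries), above 89.8% of the genes tested. TACR2 followed at 31.4 ± 12.8 FPKM, PRKG1 at 17.0 ± 3.17, EDNRB at 12.8 ± 11.1 and CHRM3 at 10.7 ± 2.45. CHRM2 averaged 8.28 ± 2.75 FPKM, GUCY1A1 7.17 ± 2.03 and EDNRA 3.19 ± 2.26, the last above only 23.3% of the genes tested. PDE5A stood first in 10 libraries and TACR2 in the other 2, and EDNRA stood last in 11 libraries and CHRM2 in 1.

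Not every step in that order held within the libraries. PDE5A exceeded TACR2 in 10 of 12 libraries (mean log2 ratio 0.69 ± 0.57, SD), TACR2 exceeded PRKG1 in 11 (0.80 ± 0.73), CHRM3 exceeded CHRM2 in 11 (0.40 ± 0.32) and GUCY1A1 exceeded EDNRA in 11 (1.51 ± 1.02). EDNRB and CHRM3 could not be ordered, since EDNRB was the higher in 5 of 12 libraries (mean log2 ratio -0.09 ± 1.18). PRKG1 was above EDNRB in 9 libraries with an SD larger than the difference (0.77 ± 1.01), and CHRM2 above GUCY1A1 in 7 (0.19 ± 0.54).

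**Figure D1:**
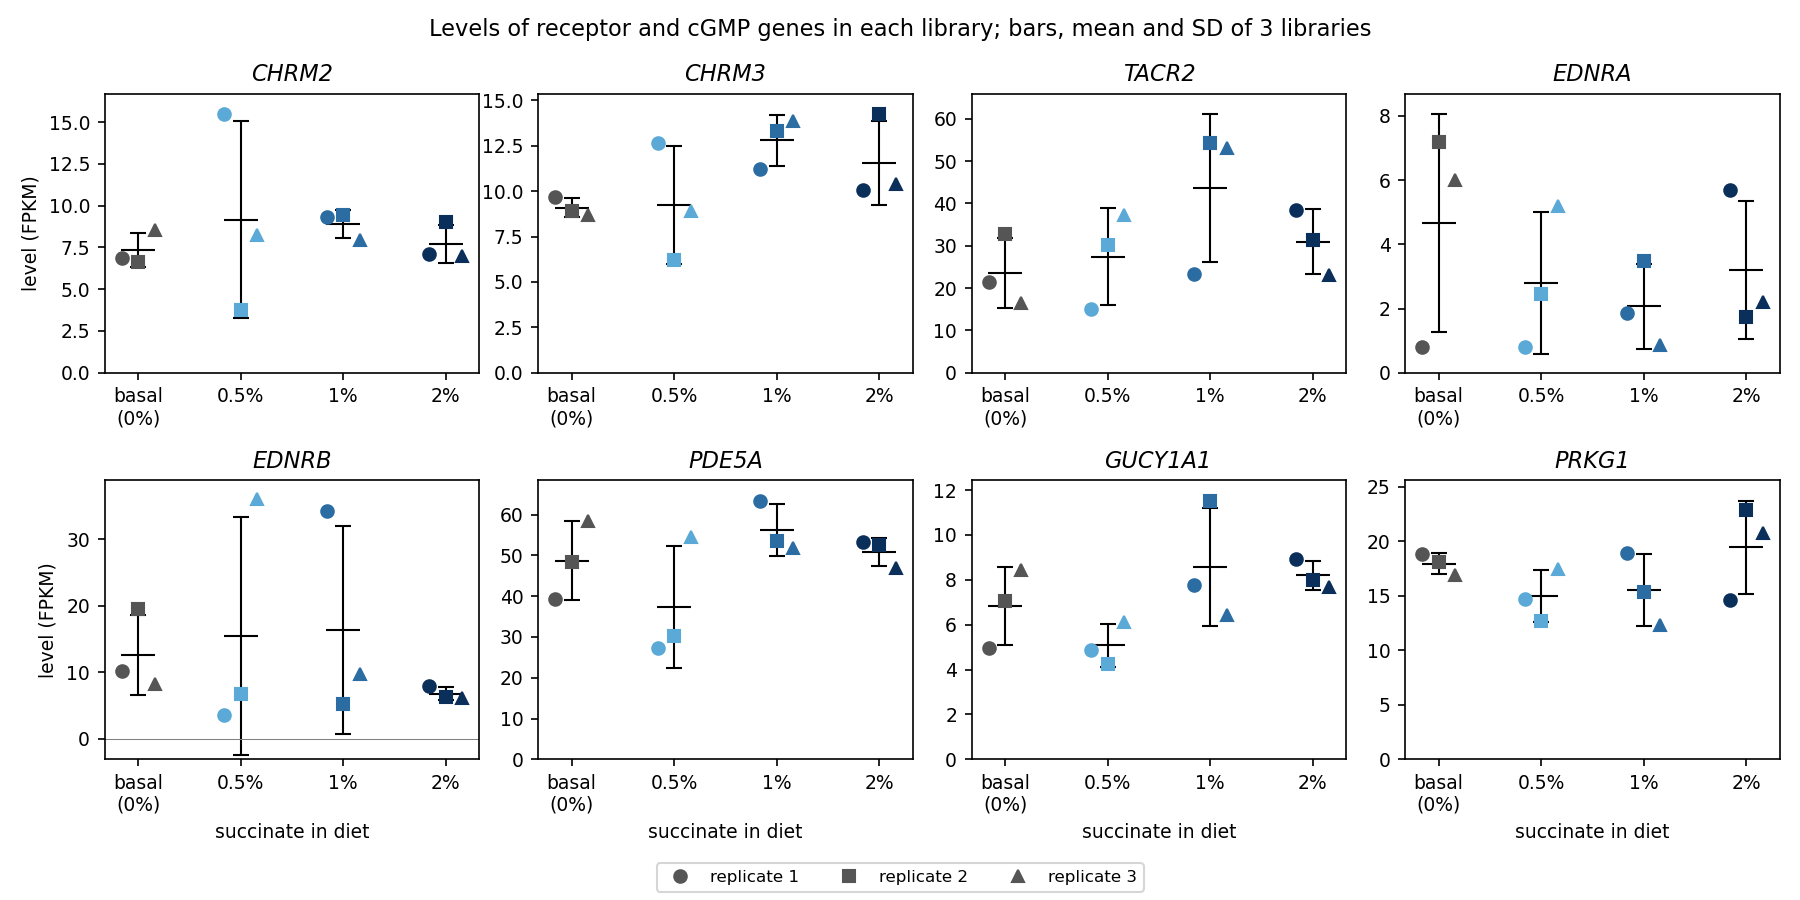
Level in FPKM (vertical axis, linear, scaled separately for each gene) of the 8 genes in each of the 12 libraries by diet (horizontal axis, succinate in the diet). Points are libraries, their shape gives the replicate number, and the horizontal and vertical bars give the mean and SD of 3 libraries. EDNRB holds 2 libraries at 36.0 and 34.2 FPKM far above the rest, while the 3 basal diet values of CHRM3 lie between 8.66 and 9.66 FPKM.

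The muscarinic receptors come first. CHRM3 (chromosome 25, 11500228 to 12063731, plus strand, in the coordinates of the file) encodes the M3 receptor, which couples to Gq and is the main trigger of contraction by acetylcholine in gut muscle. It had 9.66, 8.90 and 8.66 FPKM with the basal diet, 12.6, 6.20 and 8.90 with 0.5% succinate, 11.2, 13.3 and 13.9 with 1% and 10.1, 14.2 and 10.4 with 2%. All 3 libraries of the 1% diet and all 3 of the 2% diet lay above the highest basal library, whereas the 0.5% libraries fell on both sides of the basal ones. Groups did not overlap in this upward direction for 7.14% of all genes at 1% and 7.43% at 2%, and at 0.5% for 1.76% upward and 10.4% downward. CHRM3 was the only gene of the 8 with such a separation upward at 1% or 2%, and none of the 8 had any at 0.5%.

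The means of CHRM3 were 12.8 ± 1.39 FPKM with 1% succinate and 9.07 ± 0.523 with the basal diet (SD, n = 3 each), a log2 difference of 0.45 (SE 0.22, 95% interval -0.01 to 0.92, limma adjusted p = 0.266). With 2% succinate the mean was 11.6 ± 2.31 FPKM and the log2 difference 0.31 (SE 0.22, interval -0.16 to 0.77, limma adjusted p = 0.999). Removing from each library its trend with gene length left 0.17 at 1% (limma adjusted p = 0.657) and 0.22 at 2%, and leaving out replicate 2 of the 2% diet left 0.16 at 2%. CHRM3 has a listed length of 8815 bases, and its highest libraries, replicates 2 and 3 of the 1% diet and replicate 2 of the 2% diet, are those in which longer genes read higher.

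The summed level of the 6 macrophage markers, all tested, was lower with each succinate diet, also with 0.5%, where CHRM3 was not separated. It ran from 104.6 to 171 FPKM with the basal diet, 38.2 to 92.8 with 0.5% succinate, 63.4 to 88.7 with 1% and 71.7 to 85.9 with 2%, so that each succinate diet lay below the basal diet without overlap. Of single genes, 10.4%, 10.7% and 6.75% separated downward at the 3 doses, and no such share was computed for sums. By the score, the mean log2 deviation of these markers, the 0.5% diet overlapped the basal one. Its replicate 3 had 0.192, above replicate 1 of the basal diet with 0.182. None of the 6 markers passed limma's adjusted threshold, and 4 had an unadjusted p under 0.05 at each dose, against 4.65%, 19.4% and 3.17% of all genes. CHRM3 ran against the macrophage score by rank (rho = -0.81, permutation p = 0.00188, adjusted 0.0994; r = -0.57, permutation p = 0.0525, adjusted 0.315; r = -0.58 without the 2 farthest libraries). CHRM3 also ran with the score of PDGFRA-positive interstitial cells (r = 0.62, permutation p = 0.0342, adjusted 0.251, and rho = 0.46). Its r with interstitial cells of Cajal was 0.61 (permutation p = 0.0367, adjusted 0.251, and rho = 0.30). Without the 2 farthest libraries these r were 0.75 and 0.05. The part of these cell types in the CHRM3 values was not tested.

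CHRM2 (chromosome 4, 102027703 to 102195081, plus strand) encodes the M2 receptor, which couples to Gi and opposes cyclic AMP (cAMP), the messenger of other relaxing signals. Its levels were 6.85, 6.65 and 8.52 FPKM with the basal diet, 15.5, 3.77 and 8.23 with 0.5% succinate, 9.35, 9.42 and 7.96 with 1% and 7.13, 9.02 and 6.99 with 2%. Both the highest and the lowest value belonged to the 0.5% diet, and every succinate diet overlapped the basal one. The log2 differences from the basal diet were 0.11, 0.25 and 0.06 at 0.5%, 1% and 2% (SE 0.33 each). Without replicate 1 of the 0.5% diet the first became -0.32, and without replicate 2 it became 0.57.

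CHRM3 was the more abundant of the muscarinic pair in 11 of 12 libraries. The ratio of CHRM2 to CHRM3 in FPKM had a median of 0.709 and ran from 0.573 to 1.22, and it exceeded 1 in a single library, replicate 1 of the 0.5% diet. Its mean log2 value was -0.31 ± 0.25 with the basal diet, -0.18 ± 0.51 with 0.5%, -0.52 ± 0.27 with 1% and -0.58 ± 0.08 with 2% succinate (SD, n = 3 each). The 3 libraries of the 2% diet lay below the 3 of the basal diet, by the narrow margin of a ratio of 0.707 against 0.709, while the other diets overlapped the basal diet. Of single genes, 7.43% separated upward and 6.75% downward at 2%, and no such share was computed for ratios. An exact permutation test over the 369600 assignments of libraries to diets gave p = 0.441 (adjusted over the 3 ratios tested, 0.805). The other muscarinic genes were near the limit of detection: CHRM1 averaged 0.256 FPKM, CHRM4 0.00818 with 0 reads in 6 libraries, and CHRM5 0.00176 with 0 reads in 10.

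TACR2 (chromosome 25, 24966631 to 24979121, minus strand) encodes the neurokinin NK2 receptor, through which tachykinins such as neurokinin A contract gut muscle. It had 21.5, 32.7 and 16.4 FPKM with the basal diet, 14.9, 30.1 and 37.3 with 0.5% succinate, 23.4, 54.2 and 53.1 with 1% and 38.4, 31.3 and 23.1 with 2%. The 2 highest libraries were replicates 2 and 3 of the 1% diet, and replicate 1 of that diet lay within the basal range. The means were 43.6 ± 17.5 FPKM with 1% succinate and 23.5 ± 8.33 with the basal diet (SD, n = 3 each).

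The log2 difference of TACR2 at 1% was 0.82, the largest in size of the 8 genes at any dose (SE 0.39, 95% interval -0.02 to 1.66, unadjusted p = 0.0536, limma adjusted p = 0.264). This value depended on which libraries of the 1% diet were kept. Without replicate 1 of the 1% diet it was 1.21 with a limma adjusted p of 0.0415, in a fit where 2634 of all genes passed. Without replicates 2 and 3 of that diet it was 0.05, and over the 22 alternatives the adjusted p ran from 0.0415 to 0.997. Removing the trend with gene length left the difference at 0.85. At 0.5% and 2% succinate the log2 differences were 0.18 and 0.41 (SE 0.39 each, limma adjusted p = 0.940 and 0.999), and the second was 0.66 without replicate 2 and 0.19 without replicate 3 of the basal diet.

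Among the tachykinin receptors, TACR2 was the most abundant in every library. TACR1, the NK1 receptor gene, averaged 5.26 ± 2.26 FPKM, and TACR3, the NK3 receptor gene, 0.115 FPKM. The ratio of TACR2 to TACR1 had a median of 6.93 and ran from 2.50 to 16.3. TAC1, which encodes the precursor of substance P and neurokinin A, was read at 8.96 ± 7.54 FPKM and spanned 0.215 to 26.7 FPKM across libraries. TAC1 is a gene of enteric neurons, and the summed level of the 10 neuron markers (6 of them tested, TAC1 included) also spanned 2.52 to 79.2 FPKM.

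**Figure D2:**
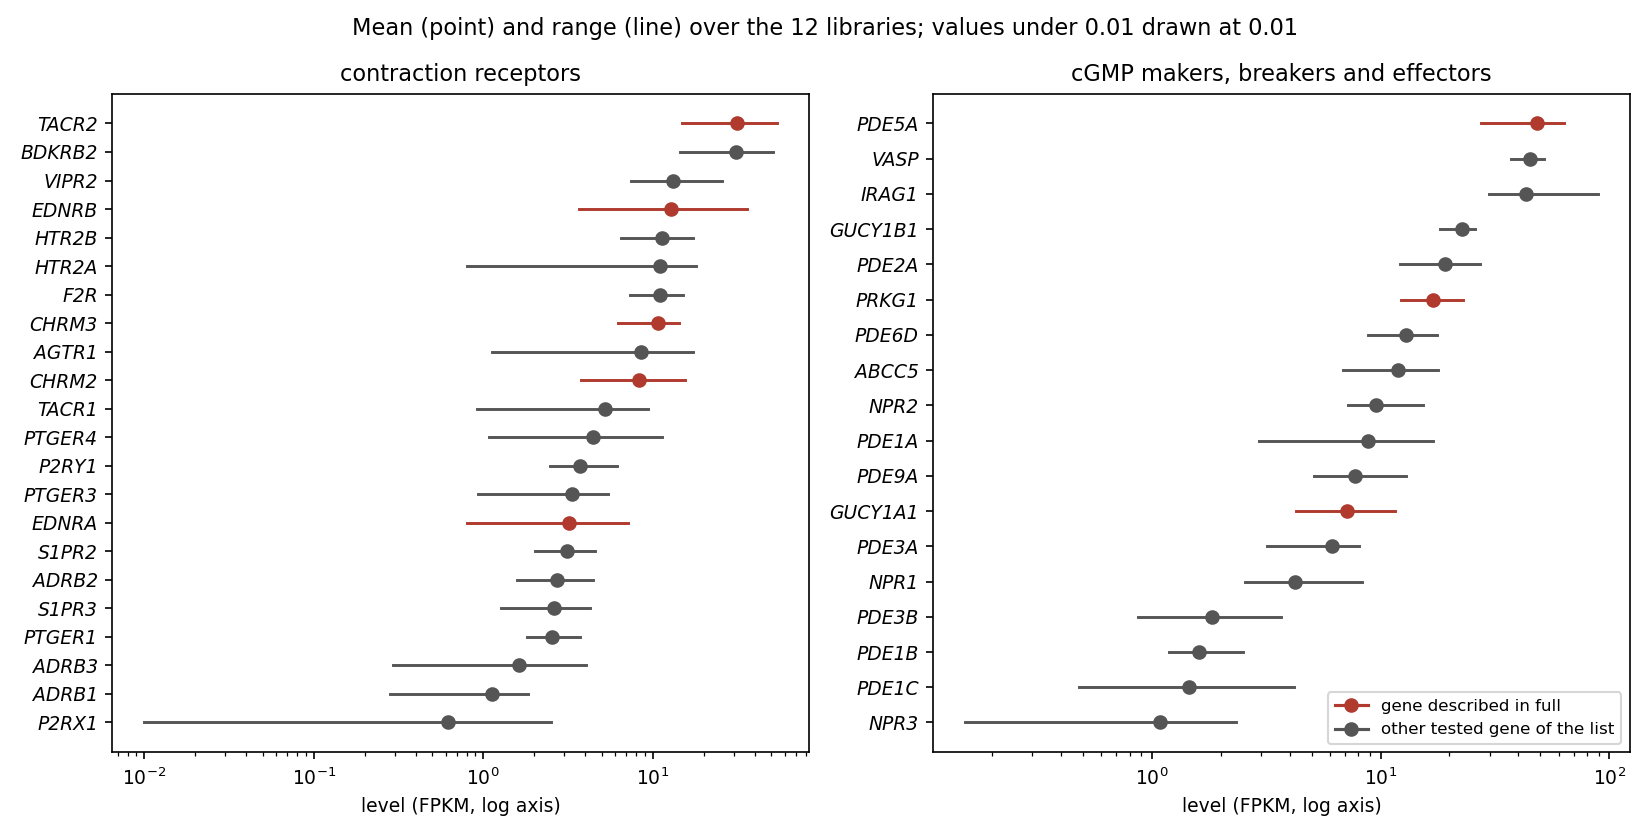
Level in FPKM (log axis) of the tested contraction receptors (left) and of the tested genes that make, break or answer to cGMP (right); points are means and lines run from the lowest to the highest of the 12 libraries, with values under 0.01 FPKM drawn at 0.01. The 8 genes described in full are red; TACR2 leads the receptors with 31.4 FPKM, beside BDKRB2 with 30.9, and PDE5A leads the cGMP genes with 48.3 FPKM.

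The endothelin receptors were the most uneven of the 8 genes. EDNRA (chromosome 17, 10733784 to 10806957, minus strand) encodes the ETA receptor, the contracting endothelin receptor of smooth muscle. It had 0.800, 7.19 and 5.99 FPKM with the basal diet, 0.803, 2.44 and 5.18 with 0.5% succinate, 1.85, 3.49 and 0.868 with 1% and 5.69, 1.73 and 2.20 with 2%. The basal diet held both the lowest and the highest library, an 8.99-fold span, and all 3 succinate diets fell inside it. Means were 2.07 ± 1.33 FPKM with 1% succinate and 4.66 ± 3.40 with the basal diet (SD, n = 3 each), a log2 difference of -0.70 (SE 0.63, 95% interval -2.08 to 0.68, limma adjusted p = 0.537). It was -1.39 without replicate 1 of the basal diet, -0.30 and -0.41 without replicates 2 and 3 of that diet, and -0.39 without replicate 3 of the 1% diet.

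EDNRB (chromosome 10, 53622505 to 53652245, minus strand) encodes the ETB receptor, found on endothelium, on glia and on smooth muscle, where it can relax or contract. Its levels were 10.2, 19.5 and 8.19 FPKM with the basal diet, 3.65, 6.79 and 36.0 with 0.5% succinate, 34.2, 5.19 and 9.75 with 1% and 7.89, 6.34 and 6.14 with 2%. A single library of the 0.5% diet and a single one of the 1% diet held the 2 highest values, and the rest of both diets lay from 3.65 to 9.75 FPKM. The 3 libraries of the 2% diet were close together and all below the lowest basal library. Groups did not overlap in this downward direction for 6.75% of all genes at 2%, and for 10.7% at 1%, where none of the 8 genes was separated downward.

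With 2% succinate EDNRB averaged 6.79 ± 0.958 FPKM, against 12.6 ± 6.03 with the basal diet (SD, n = 3 each), a log2 difference of -0.72 (SE 0.77, 95% interval -2.44 to 0.99, limma adjusted p = 0.999). Without replicate 2 of the basal diet it was -0.38. At 0.5% the log2 difference was -0.21 (SE 0.77); without replicate 3 of that diet it was -1.09 and without replicate 1 it was 0.41. At 1% it was 0.05 (SE 0.77), and it became -0.65 without replicate 1 and 1.46 without replicates 2 and 3 of that diet. The summed level of the 10 neuron markers ran from 9.93 to 28.8 FPKM with 2% succinate and from 16.2 to 53.3 with the basal diet, and its part in the EDNRB values was not tested.

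EDNRB exceeded EDNRA in all 12 libraries. The ratio of EDNRA to EDNRB had a median of 0.316 and ran from 0.0542 to 0.732. Its mean log2 value was -1.85 ± 1.65 with the basal diet, -2.15 ± 0.66 with 0.5%, -2.76 ± 1.93 with 1% and -1.28 ± 0.72 with 2% succinate (SD, n = 3 each; exact permutation p = 0.611, adjusted 0.805). The SD of the basal diet and that of the 1% diet were each larger than the widest difference between diet means, 1.48.

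The ligand of both receptors is made from EDN1 in endothelium and other cells. EDN1 had 2.06, 12.8 and 5.62 FPKM with the basal diet, 1.50, 3.68 and 4.81 with 0.5% succinate, 1.96, 1.12 and 1.44 with 1% and 7.05, 3.59 and 3.30 with 2%. All 3 libraries of the 1% diet were below the lowest basal library, by the narrow margin of 1.96 against 2.06 FPKM. Such a downward separation held for 10.7% of all genes at 1%. The log2 difference at 1% was -1.40 (SE 0.47, limma adjusted p = 0.201). EDN3, the endothelin gene needed for enteric neuron development, averaged 0.336 ± 0.197 FPKM, and ECE1, which encodes the enzyme that activates endothelin precursors, 27.4 ± 5.99 FPKM.

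The cGMP genes begin with its synthesis. GUCY1A1 (chromosome 17, 43710769 to 43779364, minus strand) encodes the alpha subunit of soluble guanylate cyclase, the receptor for nitric oxide. It had 4.97, 7.05 and 8.43 FPKM with the basal diet, 4.88, 4.25 and 6.11 with 0.5% succinate, 7.77, 11.5 and 6.42 with 1% and 8.92, 7.98 and 7.70 with 2%. The 2 lowest libraries were of the 0.5% diet and replicate 2 of the 1% diet was the highest, and each succinate diet overlapped the basal diet. GUCY1A1 gave the lowest F test p of the 8 genes, 0.0457 before adjustment and 0.396 after it (limma).

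Means of GUCY1A1 were 6.82 ± 1.74 FPKM with the basal diet, 5.08 ± 0.947 with 0.5% succinate, 8.57 ± 2.65 with 1% and 8.20 ± 0.640 with 2% (SD, n = 3 each). The log2 differences from the basal diet were -0.35, 0.28 and 0.26 at 0.5%, 1% and 2% (SE 0.22 each, limma adjusted p = 0.883, 0.471 and 0.999). Without replicate 1 of the basal diet these were -0.53, 0.10 and 0.08, and without replicate 3 of that diet -0.20, 0.43 and 0.41. The sign at 1% depended on the handling of gene length, since it was -0.11 once each library's trend with length was removed. GUCY1A1 has the longest listed length of the 8 genes, 13036 bases.

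GUCY1B1 encodes the beta subunit with which the alpha subunit pairs. It averaged 22.8 ± 2.39 FPKM, and the ratio of GUCY1B1 to GUCY1A1 had a median of 3.09 and ran from 2.24 to 4.61. This ratio divides by the listed lengths of both genes, 3311 bases for GUCY1B1. The nitric oxide synthase genes were scarce in all diets: NOS1, the neuronal form, averaged 0.154 ± 0.132 FPKM and NOS3, the endothelial form, 1.11 ± 0.571.

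PDE5A (chromosome 6, 6167892 to 6317229, plus strand) encodes the phosphodiesterase that breaks down cGMP and is the target of sildenafil. Its levels were 39.2, 48.4 and 58.5 FPKM with the basal diet, 27.4, 30.2 and 54.6 with 0.5% succinate, 63.4, 53.5 and 51.7 with 1% and 53.3, 52.4 and 46.8 with 2%. The 2 lowest libraries were both of the 0.5% diet, whose replicate 3 stood among the higher values, and every succinate diet overlapped the basal one. The mean with 0.5% succinate was 37.4 ± 15.0 FPKM, against 48.7 ± 9.67 with the basal diet (SD, n = 3 each), a log2 difference of -0.42 (SE 0.23, 95% interval -0.93 to 0.08, limma adjusted p = 0.883). Without replicate 3 of the 0.5% diet it was -0.72 (limma adjusted p = 0.456), and without replicate 1 of that diet -0.24.

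At 1% and 2% succinate the log2 differences of PDE5A were 0.21 and 0.08 (SE 0.23 each), and the first was -0.02 with the length trend removed. PDE2A, another phosphodiesterase that acts on cGMP, averaged 19.1 ± 3.92 FPKM and was below PDE5A in all 12 libraries, with a median PDE5A to PDE2A ratio of 2.70. The ratio of GUCY1A1 to PDE5A had a median of 0.145 and ran from 0.112 to 0.215. Its mean log2 value was -2.85 ± 0.11 with the basal diet, -2.82 ± 0.34 with 0.5%, -2.75 ± 0.46 with 1% and -2.63 ± 0.07 with 2% succinate (SD, n = 3 each; exact permutation p = 0.805, adjusted 0.805). All 3 libraries of the 2% diet, at ratios of 0.152 to 0.167, were above the 3 of the basal diet, at 0.127 to 0.145, and the other diets overlapped the basal diet. At 2%, 7.43% of single genes separated upward and 6.75% downward, and no such share was computed for ratios.

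**Figure D3:**
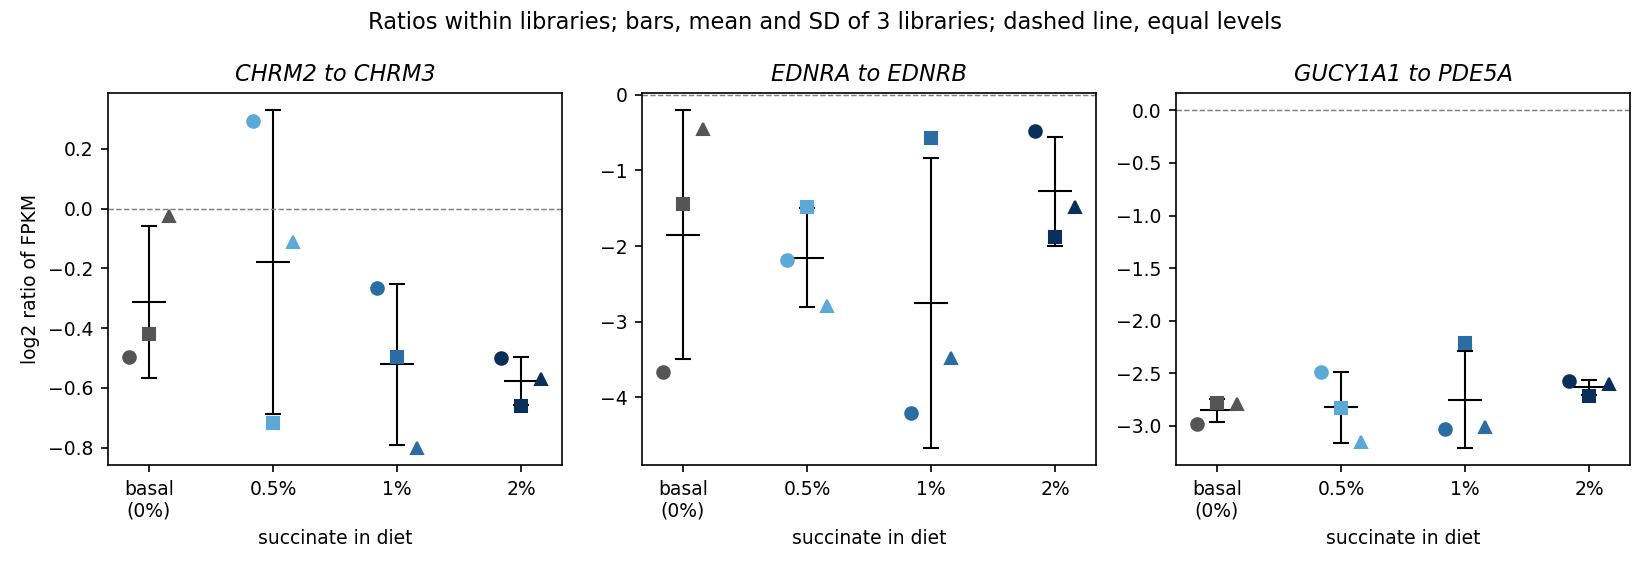
Log2 ratio of FPKM within each library (vertical axis) for CHRM2 to CHRM3, EDNRA to EDNRB and GUCY1A1 to PDE5A, by succinate in the diet (horizontal axis); points are libraries, shaped by replicate number, bars give the mean and SD of 3 libraries, and the dashed line marks equal levels. The 2% and basal diets overlap for EDNRA to EDNRB, whose panel covers the widest span, from a ratio of 0.0542 to 0.732. They do not overlap in the other panels, for CHRM2 to CHRM3 only by 0.707 against 0.709. How often ratios separate in this way was not computed.

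PRKG1 (chromosome 22, 6687943 to 8080976, minus strand) encodes the cGMP-dependent protein kinase that relaxes smooth muscle. It had 18.8, 18.1 and 16.9 FPKM with the basal diet, 14.7, 12.7 and 17.4 with 0.5% succinate, 18.9, 15.4 and 12.3 with 1% and 14.6, 22.9 and 20.7 with 2%. The basal libraries were close together in the middle of the range, and each succinate diet overlapped them. The log2 differences from the basal diet were -0.26, -0.21 and 0.09 at 0.5%, 1% and 2% (SE 0.20 each, limma adjusted p = 0.883, 0.551 and 0.999). The second was -0.06 without replicate 3 and -0.35 without replicate 1 of the 1% diet. PRKG1 was the steadiest of the 8 genes, with a coefficient of variation of 18.7% over the 12 libraries.

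PRKG2, which encodes the other cGMP-dependent kinase, averaged 0.170 ± 0.128 FPKM, and PRKG1 was at least 37.0 times as abundant per length in every library. IRAG1 encodes the protein through which the PRKG1 kinase blocks calcium release. It had 31.7, 32.2 and 33.0 FPKM with the basal diet, 45.7, 29.8 and 41.1 with 0.5% succinate, 40.3, 52.6 and 89.3 with 1% and 37.4, 47.6 and 39.5 with 2%. All libraries of the 1% and 2% diets were above the highest basal library. Such an upward separation held for 7.14% of all genes at 1% and 7.43% at 2%. The log2 difference at 1% was 0.81 (SE 0.25, limma adjusted p = 0.197). Longer genes read higher, as given above, in replicate 3 of the 1% diet, the highest library of IRAG1. Replicate 2 of that diet, with the stronger trend, had 52.6 FPKM. The part of gene length in the IRAG1 values was not tested.

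The spread of the 8 genes over the libraries set what the comparisons could show. The coefficient of variation of EDNRB, 87.0%, was larger than that of 99.7% of the 2372 tested genes of similar level (mean within 0.5 on the log2 scale), whose median was 19.7%. EDNRA, at 71.0%, exceeded 95.5% of 1870 such genes, and TACR2, at 40.9%, exceeded 94.3% of 1439. CHRM2 (33.2%), GUCY1A1 (28.3%), PDE5A (22.5%), CHRM3 (22.9%) and PRKG1 lay between 47.4% and 82.6% of the genes of their level. The 95% interval at 1% succinate was accordingly narrow for PRKG1, -0.64 to 0.21, and wide for EDNRB, -1.66 to 1.77.

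**Figure D4:**
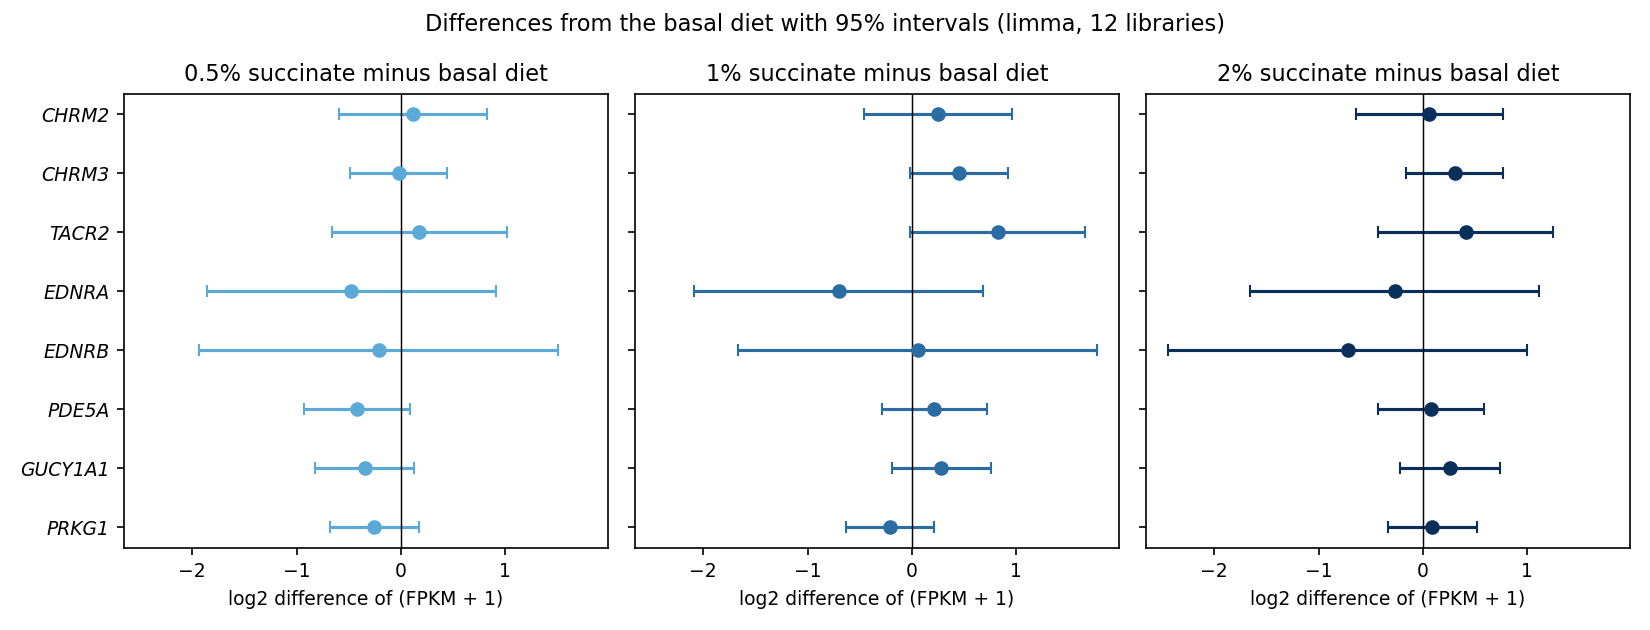
Log2 difference of (FPKM + 1) from the basal diet (horizontal axis) with its 95% interval for the 8 genes (vertical axis) at 0.5%, 1% and 2% succinate, from the limma fit of all 12 libraries. All 24 intervals include 0; the nearest to leaving it are CHRM3, -0.01 to 0.92, and TACR2, -0.02 to 1.66, both at 1%.

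As a group the 8 genes followed no common direction. At 0.5% succinate 2 of the 8 had higher means on the log2 scale than with the basal diet, and their median log2 difference was -0.23, where all tested genes had a median of -0.11 and 29.4% were higher. At 1% it was 6 of 8 and a median of 0.23, against -0.04 and 45.4% for all genes. At 2% it was 6 of 8 and 0.08, against -0.004 and 49.3%. Dividing each library by its median ratio moved the median of all genes at 0.5% to -0.01 and that of the 8 genes to -0.12, with 3 of 8 higher. At 1% the 8 genes had a median of 0.01 with the length trend removed, with 4 of 8 higher, and of 0.0857 without replicate 1 of the basal diet. The slopes on the dose were between -0.33 (EDNRB, SE 0.33) and 0.23 (TACR2, SE 0.19) on the log2 scale per 1% succinate.

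Relations among the 8 genes, and between them and 10 lists of cell type markers, were computed over the 12 libraries. There were 108 such relations, 28 between pairs of the genes and 80 with a marker score; 17 had a permutation p under 0.05 for Pearson's r, and 0 passed after adjustment. The largest was between EDNRA and the endothelium score (r = 0.82, permutation p = 0.00148, adjusted 0.144; rho = 0.85, permutation p = 0.00085, adjusted 0.0918), and r was 0.71 without the 2 libraries farthest from the median. EDNRA also ran with the fibroblast score (r = 0.76, permutation p = 0.00508; rho = 0.77, permutation p = 0.00492; both adjusted p above 0.1, 0.144 and 0.133). EDNRA had an unadjusted permutation p under 0.05 with 6 of the 10 lists, the others being enteric glia (r = 0.72), macrophages (0.70), pericytes (0.69) and adipocytes (0.67). The summed level of the 6 endothelial markers ran from 57.3 to 120 FPKM with the basal diet, 48.4 to 125 with 0.5% succinate, 64.2 to 94.9 with 1% and 64.0 to 125 with 2%. Replicate 1 of the basal diet and replicate 1 of the 0.5% diet, with the lowest sums (57.3 and 48.4 FPKM), were also the libraries with the lowest EDNRA, whereas replicate 3 of the 1% diet had the next lowest EDNRA with a sum of 94.9 FPKM.

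Among the 28 pairs, 2 had a permutation p under 0.05 for r before adjustment and none after it. PDE5A and GUCY1A1, which break down and make cGMP, had r = 0.77 (permutation p = 0.00281, adjusted 0.144) and rho = 0.69 (permutation p = 0.0156, adjusted 0.275), and r was 0.54 without the 2 farthest libraries. CHRM2 and CHRM3 had r = 0.72 (permutation p = 0.0109, adjusted 0.168) and rho = 0.62 (permutation p = 0.0340, adjusted 0.334), and r was 0.52 without the 2 farthest libraries. PRKG1 ran against the smooth muscle score (r = -0.75, permutation p = 0.00532, adjusted 0.144; rho = -0.80, permutation p = 0.00276, adjusted 0.0994), with r = -0.83 without the 2 farthest libraries. EDNRB ran with the enteric neuron score (r = 0.64, permutation p = 0.0237, adjusted 0.201; rho = 0.57, permutation p = 0.0565, adjusted 0.450; r = 0.57 without the 2 farthest libraries). EDNRB had r of 0.34 with endothelium, 0.16 with glia and -0.31 with smooth muscle. By rank it ran against interstitial cells of Cajal (rho = -0.66, permutation p = 0.0235, adjusted 0.275). The 17 relations under 0.05 included CHRM2 with cells of Cajal (r = 0.73) and PDGFRA-positive cells (0.60). They also included GUCY1A1 with PDGFRA-positive cells (0.66), cells of Cajal (0.64) and pericytes (0.59). Without the 2 farthest libraries r was 0.43, 0.82, 0.30, 0.16 and 0.30 in turn. The smooth muscle sum was 34628 to 46306 FPKM with 0.5% succinate, against 25531 to 27864 with the basal diet, and the 2 diets did not overlap. Of single genes, 1.76% separated upward at 0.5%, and no such share was computed for sums. At that dose 0 of the 10 smooth muscle markers passed limma's adjusted threshold. An unadjusted p under 0.05 was found for 3 of them, against 4.65% of all genes.

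**Figure D5:**
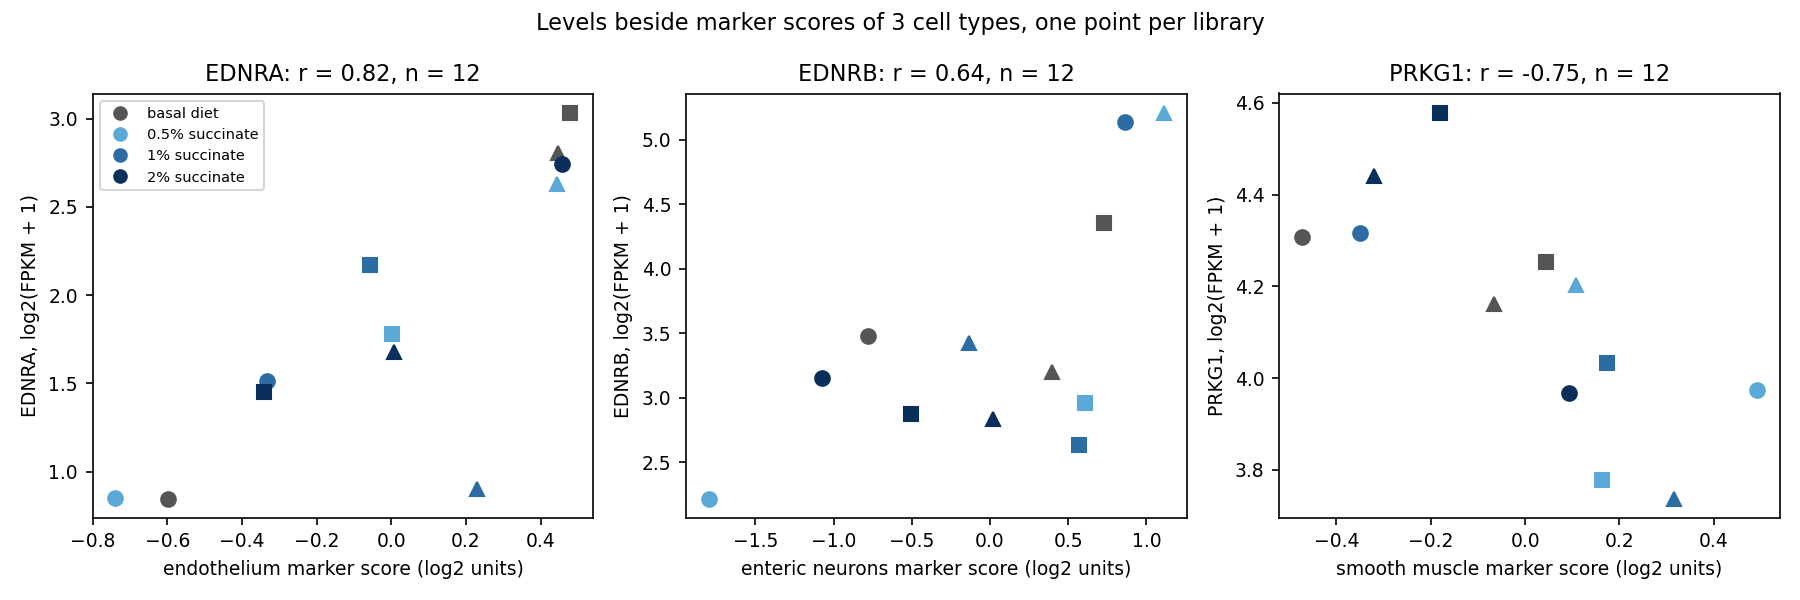
Level of a gene as log2(FPKM + 1) (vertical axis) against a marker score, the mean deviation of the list's tested markers on the log2 scale (horizontal axis), for 12 libraries coloured by diet and shaped by replicate number. EDNRA is drawn against endothelium (r = 0.82), EDNRB against enteric neurons (r = 0.64) and PRKG1 against smooth muscle (r = -0.75); none of the 3 relations passed after adjustment.

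For each of the 8 genes the tested genes with the most similar pattern over the 12 libraries were listed by Pearson's r, as a description. CHRM2 was nearest to EHBP1 and MSRB3 (both 0.93) and PARM1 (0.91). CHRM3 was nearest to BPNT2, FTSJ1 and PMVK (0.94 each), with 29 named genes over 0.9. TACR2 was nearest to B4GALT3 (0.93), MYO10 (0.88) and PDK2 (0.86), and EDNRA to TTC9 (0.94), CTSC (0.92) and LDB2 (0.91). EDNRB had the weakest matches, SINHCAF (0.84), TAF7L (0.83) and TMEM150C (0.83), and the first was 0.61 without the 2 libraries farthest from the median. PDE5A was nearest to OGA (0.96), ARHGAP19 and ZSWIM6 (0.94 each), GUCY1A1 to FOXP1 (0.94), GAB1 (0.92) and ASAP2 (0.91), and PRKG1 to TBL1XR1 and CSNK1A1 (0.89 each) and SEMA3C (0.88). These genes were picked for the size of r, so no p is given.

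The wider pathways held 145 genes in 6 lists, of which 143 were in the file and 101 were tested; ABCC4 and PDE4A were not analysed here. Of the 93 tested that are not among the 8 genes, 0 passed limma's adjusted threshold at any dose. At an unadjusted p under 0.05 there were 6 at 0.5% succinate (6.45%, 1 of them higher), 15 at 1% (16.1%, 10 higher) and 3 at 2% (3.23%, 2 higher), where the shares of all genes were 4.65%, 19.4% and 3.17%. Their median log2 differences were -0.17, 0.07 and 0.05 at the 3 doses, where those of all tested genes were -0.11, -0.04 and -0.004. Of all tested genes, 29.4%, 45.4% and 49.3% were higher than with the basal diet at 0.5%, 1% and 2%. The counts of higher genes given below for each list stand beside these shares, and no list was tested as a set.

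Of 43 receptors of contracting and relaxing signals, 22 were tested, and 7, 12 and 7 of these were higher than with the basal diet at 0.5%, 1% and 2%. The most abundant outside the 8 genes was BDKRB2, the bradykinin B2 receptor gene, at 30.9 ± 10.7 FPKM, a level like that of TACR2. VIPR2, a receptor gene for the relaxing peptide VIP, followed at 13.2 ± 5.76 FPKM, then the serotonin receptor genes HTR2B at 11.3 ± 3.13 and HTR2A at 11.1 ± 5.47. Only 6 of 20 ligand and ligand-making genes were tested, and 1, 2 and 1 were higher. They included BCHE, the gene of a cholinesterase, at 28.1 ± 9.62 FPKM and VIP at 6.25 ± 4.48, while CHAT, which makes acetylcholine, averaged 0.0851 FPKM with 0 reads in 3 libraries.

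Of 23 genes that make, break or answer to cGMP, 18 were tested, and 6, 11 and 14 were higher at the 3 doses. VASP, a substrate of the cGMP kinase, led those outside the 8 genes at 44.9 ± 4.52 FPKM, next to IRAG1 at 43.4 ± 16.1. Among G proteins and their targets 27 of 28 were tested, with 7, 17 and 20 higher, led by GNAS at 274 ± 38.7 FPKM and RGS2, which turns off Gq, at 173 ± 84.2. GNAI2, through which CHRM2 can act, had 95.7 ± 12.3 FPKM, and RGS5 44.2 ± 16.5. ARRB1, which encodes an arrestin that uncouples receptors, averaged 41.7 FPKM with 1% succinate and 17.0 with the basal diet. The log2 difference was 1.18 (SE 0.27, limma adjusted p = 0.197), and the gene was named after its values were seen. Its listed length is 8963 bases, and its 1% libraries had 25.7, 38.5 and 61.0 FPKM. Replicates 2 and 3 of that diet, the higher ones, are libraries in which longer genes read higher, while replicate 1 had a rho of 0.06 with length. The part of gene length in the ARRB1 values was not tested.

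All 11 genes of RhoA and myosin phosphatase control were tested, and 3, 7 and 9 were higher at the 3 doses. MYLK, the myosin light chain kinase gene, had 1236 ± 200 FPKM, RHOA 193 ± 24.9, and the myosin phosphatase genes PPP1CB and PPP1R12A 163 ± 34.7 and 113 ± 22.8. Of 20 genes of cAMP signalling 17 were tested, with 5, 11 and 14 higher. The cAMP kinase subunit genes PRKAR1A (72.7 ± 3.75 FPKM), PRKAR2A (56.1 ± 9.38), PRKACA (33.0 ± 5.22) and PRKACB (13.6 ± 2.46) led that list. Per length, PRKG1 at 17.0 FPKM thus lay between PRKACA and PRKACB.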

How the data were processed

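Per the labels' protocols, total RNA was isolated with Trizol reagent and made into libraries using a NEBNext Ultra kit. Per the submitters' processing notes, the tools were cutadapt 1.15 for trimming, HISAT2 2.1.0 for alignment and HTSeq 0.9.1 for counting. The authors deposited FPKM for 21257 genes with lengths and positions. The genome build and the strand setting are not given in the sources used here, so reads from overlapping antisense genes cannot be told apart. FPKM times gene length gave whole reads (within 0.01) for 100% of the deposited values. A RefSeq table (assembly ARS-UI_Ramb_v3.0) matched 20874 IDs (98.2%), replaced 437 LOC names and gave chromosomes only.

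Genes reaching 1 FPKM in 3 or more libraries (12095) were fitted on log2(FPKM + 1), a scale that understates changes of low genes, with limma 3.58.1 (trend, robust; R 4.3.3, statmod 1.5.0) over all 12 libraries. Two-sided p-values were adjusted by Benjamini-Hochberg over all genes tested, with a threshold of 0.05. The smallest p an exact test of 3 against 3 libraries allows is 0.1, and pairs of diets got no such test. Scripts were tested on simulated data. Alternatives were other pseudocounts, filters and scalings, removal of the trend with gene length, limma-voom on recovered reads, fits of only the diets compared, a replicate block and left-out libraries.

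The 8 genes and all lists were chosen with earlier results of these data known. Named were the 8 genes, the 3 genes with the highest r with each, the 4 most abundant genes of each list, and NOS1, NOS3, EDN1, EDN3, TAC1, GUCY1B1, PRKG2 and IRAG1. The other muscarinic and tachykinin receptor genes, CHAT, and the ratios other than CHRM2 to CHRM3, EDNRA to EDNRB and GUCY1A1 to PDE5A were picked after their values were seen. A permutation test of each relation drew 100000 permutations.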

Additional observations from a re-analysis of the deposited data

How the results depend on the processing

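Of 696 log2 differences and slopes of the 8 genes under other settings, 665 kept their direction and side of the threshold, 30 changed sign without passing the threshold, and 1 passed it: TACR2 at 1% succinate without replicate 1 of that diet (1.21). The sign changed for CHRM3 at 0.5% with median-ratio scaling (0.0893), quantile normalization (0.11) and the length trend removed (0.12). With the length trend removed it also changed at 1% for PDE5A (-0.0165) and GUCY1A1 (-0.11) and for the CHRM2 slope (-0.0299). Without replicates 2 and 3 of the 1% diet, PRKG1 at 1% was 0.0766. The cause was not tested. Leaving out each library in turn gave ranges that cross 0. At 0.5% these were -0.32 to 0.57 for CHRM2, -0.25 to 0.21 for CHRM3, -0.0857 to 0.55 for TACR2 and -1.09 to 0.41 for EDNRB; at 1%, -0.65 to 0.60 for EDNRB. At 2% they were -0.0421 to 0.16 for CHRM2, -0.96 to 0.13 for EDNRA, -0.0677 to 0.22 for PDE5A and -0.0360 to 0.27 for PRKG1. For the slope they were -0.0304 to 0.0838 for CHRM2, -0.33 to 0.0812 for EDNRA and -0.0045 to 0.14 for PRKG1.

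Leaving out each library in turn, 0 to 1 of the 8 genes passed at 1%. Over all genes, 0 to 2634 passed at 1%, 0 to 1 at 2% and 0 to 1344 in the F test, and both high counts came without replicate 1 of the 1% diet. Without replicates 2 and 3 of the 1% diet 1 gene passed at 2% and 1 in the F test, and with only the libraries compared 5 passed at 2%; none was among the 8. The replicate numbers showed no clear pairing of the samples: of 18 same-numbered pairs, deviations correlated at -0.33 to 0.26, 5 over 0.1. In 11 of 36 cases a library went best with its own number. With 3 libraries per diet this check cannot settle whether the numbers mark a shared pen, day or batch. A fit with the replicate block called 0 of the 8 genes and 0 of all genes in each test (before adjustment 509, 2240 and 351 genes at the 3 doses, 335 in the slope and 1371 in the F test; of the 8 genes, 1 at 1%, TACR2, and 0 elsewhere). The F test before adjustment, 1 of 8 above, gave 0 of 8 with median-ratio scaling, with the length trend removed and with the block. It also gave 0 of 8 with no filter on low values. The same held when replicate 2 of the basal, the 0.5% or the 1% diet was left out alone, and when any replicate of the 2% diet was. The contrast at 1% had 2 of 8 below an unadjusted 0.05, CHRM3 and TACR2, with median-ratio scaling and with quantile normalization. In these fits 2307 and 2399 of all 12095 genes were below it. That contrast also had 2 of 8 without replicate 1 of the 0.5% diet (2370 of all genes) and without replicate 1 of the 1% diet (4461 of all genes). The contrast at 0.5% had 3 of 8, EDNRA, PDE5A and GUCY1A1, without replicate 1 of the basal diet, against 838 of all 12095 genes. None of the 3 ratios passed under any alternative; the lowest adjusted p was 0.183, for CHRM2 to CHRM3 without replicate 2 of the 0.5% diet. With 3 libraries per diet, the intervals given above limit what could be detected.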
